A study of Mus musculus with 6 samples.

Results

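The enzymes of the tricarboxylic acid (TCA) cycle oxidise acetyl groups in the mitochondrial matrix and pass the electrons to the respiratory chain. The RNA of 9 genes for these enzymes was measured in the cerebellum of wild-type (WT) and frataxin-deficient (KIKO) mice. The genes were chosen by the function of their products, with earlier results of these data known. They were found by symbol among the 31053 genes of the count table. They are *Cs*, *Idh2*, *Idh3a*, *Idh3b*, *Ogdh*, *Dlst*, *Suclg1*, *Fh1* and *Mdh2*. All 9 were among the 10889 genes that had enough counts to be tested.

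The cycle begins when citrate synthase joins acetyl-CoA to oxaloacetate, and it returns to oxaloacetate through isocitrate, α-ketoglutarate, succinyl-CoA, succinate, fumarate and malate. Isocitrate dehydrogenase, the α-ketoglutarate dehydrogenase complex and malate dehydrogenase produce NADH, and succinate dehydrogenase feeds electrons to ubiquinone. Frataxin is a mitochondrial protein needed for the assembly of iron-sulfur clusters. Succinate dehydrogenase carries such clusters, whereas the products of the 9 genes do not. In microglia and macrophages, the cycle is also a source of citrate for lipid synthesis, of itaconate, which is made from aconitate, and of succinate.

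The comparison addresses how frataxin deficiency alters gene expression in the cerebellum. KIKO mice carry a knocked-in repeat expansion on an allele and a knock-out on the other allele, in every cell, and are used as a model of Friedreich's ataxia. The study describes adult mice at an early stage of the disease, with C57BL/6 littermates as WT, and it names CD45+/CD11b+ cells that were sorted magnetically from the cerebellum before bulk RNA sequencing. The labels give the cerebellum and the genotype, without strain, age, sex, treatment or sorting, and do not say whether a library is from 1 animal or a pool, so p-values measure only the spread between these libraries, which may be technical. Libraries of 2 WT samples (replicates 1 and 2) and 3 KIKO samples (replicates 1 to 3) were compared, and a WT sample numbered 3 was not analysed here.

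The libraries held between 1013107 and 1351339 counts. KIKO replicate 2 stood apart from the rest. Its log2 values had correlations of 0.672 to 0.747 with any other library across the tested genes, and the common coefficient of biological variation was 0.468 with it and 0.238 without it. Summed over 11 microglial markers such as *Cx3cr1*, *C1qa* and *Csf1r*, the libraries had normalized CPM (counts scaled to a common library size) from 4202 to 8885, and none of the 11 was at 0 in any library. Markers of granule neurons, Purkinje neurons, choroid plexus, oligodendrocytes, endothelial cells and blood cells were also present in every library. Summed in the same way, 4 choroid plexus markers had 6612 to 14150, above the microglial sum in every library. The sum of 6 granule neuron markers, 1341 to 2262, was below the microglial sum in every library. Such sums do not give the share of each cell type. In such bulk RNA, fewer cells of a type and less RNA per cell cannot be told apart.

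None of the 9 genes passed the thresholds used by the study, a log2 fold change above 0.75 in size with an unadjusted p under 0.05. Across all tested genes 131 passed, or 1.2%, of which 78 were higher and 53 lower in KIKO. This balance turned without KIKO replicate 2, to 305 higher and 364 lower. In each of the 9 genes the values of WT and KIKO overlapped. The groups did not overlap in 16.7% of all tested genes, so overlap was the usual case there too. The fitted log2 fold change of KIKO over WT was positive in 6 of the 9 genes and negative in 3, with a median of 0.21 and a range from -0.14 to 0.74. Over all tested genes the median was 0.02, and 51.9% were positive. The 95% interval of each of the 9 genes included 0, so no unadjusted p fell under 0.05, and the adjusted p of each was 1 by the quasi-likelihood test of edgeR with Benjamini-Hochberg adjustment. No tested gene had an adjusted p under 0.05, with edgeR or with DESeq2. The number under an unadjusted p of 0.05 was 131, and the smallest was 0.00399.

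**Figure D1:**
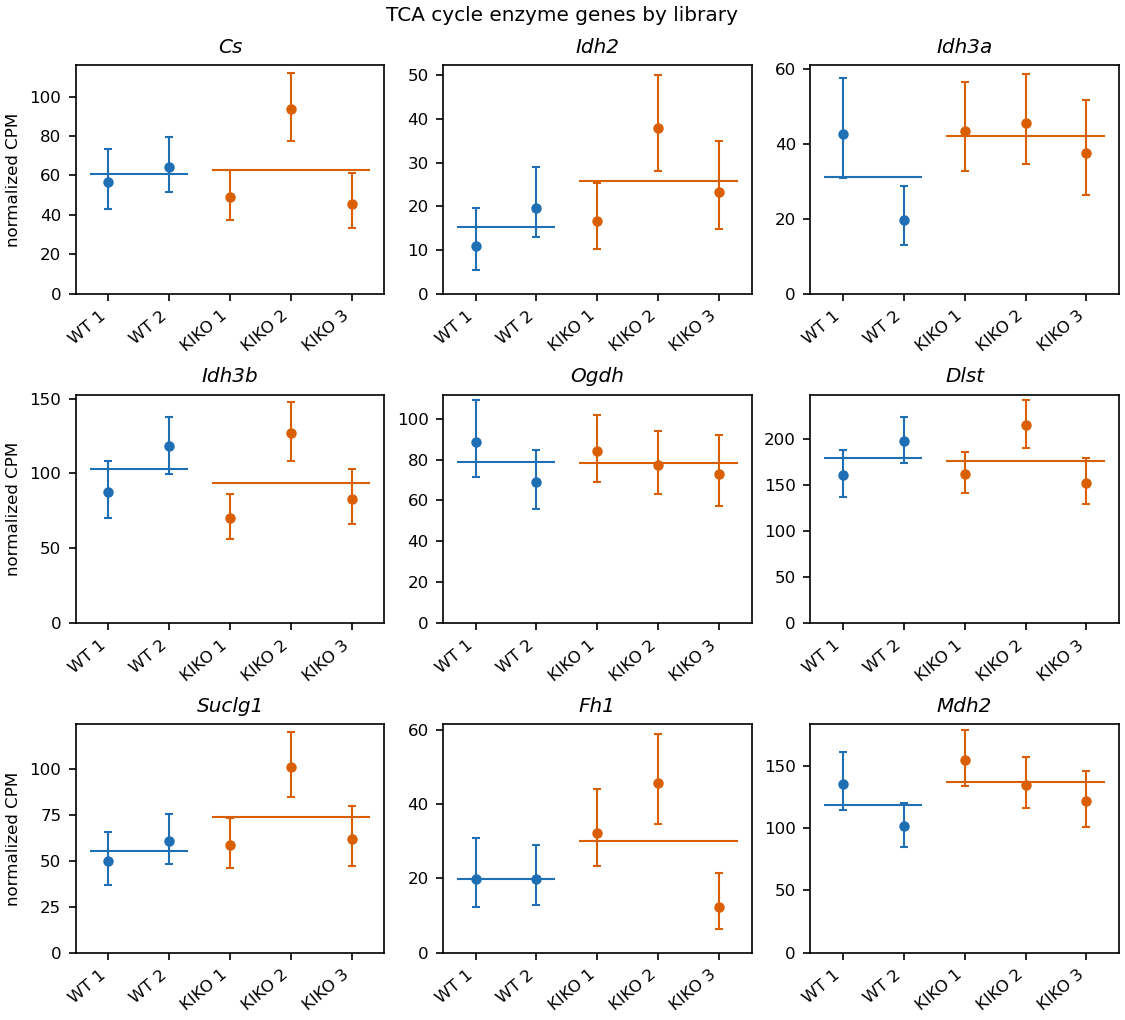
Each panel plots 1 gene, with the library on the horizontal axis and the normalized CPM on the vertical axis, which starts at 0. Points are libraries (blue, WT; orange, KIKO), vertical bars are 95% Poisson intervals that cover counting error only, and horizontal lines are group means. KIKO replicate 2 is the highest library in 7 of the 9 panels, and the groups overlap in all 9.

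The promoters of *Ogdh*, *Mdh2*, *Cs* and *Fh1* are shown because these genes stand at the ends of the pattern across libraries described below. *Ogdh* and *Mdh2* were the members not highest in KIKO replicate 2, and *Cs* and *Fh1* had the highest level there relative to the other KIKO libraries. They were picked after the values were seen. The sequences are from RefSeq (GRCm38.p6) and run 5′ to 3′ on the strand of the gene. The stretch of *Ogdh* is chr11:6291447-6291596 on the plus strand, of *Mdh2* chr5:135778511-135778540 on the plus strand, of *Cs* chr10:128337577-128337726 on the plus strand and of *Fh1* chr1:175625636-175625785 on the minus strand. Capitals mark the palindrome TGACGTCA, the binding letters of the cAMP-responsive factor CREB.
*Ogdh*: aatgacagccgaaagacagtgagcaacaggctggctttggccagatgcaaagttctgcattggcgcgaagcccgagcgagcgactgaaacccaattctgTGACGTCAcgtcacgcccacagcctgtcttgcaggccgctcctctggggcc
*Mdh2*: ggagagaatcgTGACGTCAggcctcgctcg
*Cs*: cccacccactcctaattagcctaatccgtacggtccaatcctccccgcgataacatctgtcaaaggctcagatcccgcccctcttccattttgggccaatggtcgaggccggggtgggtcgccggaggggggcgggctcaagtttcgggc
*Fh1*: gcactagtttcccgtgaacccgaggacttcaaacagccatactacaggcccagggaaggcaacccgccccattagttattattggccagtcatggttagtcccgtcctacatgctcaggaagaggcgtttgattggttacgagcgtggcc

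Windows from 250 bases before to 50 bases after the start of transcription were given for 8 of the 9 genes, with 6 windows for *Ogdh*. The letters TGACGTCA, which read the same on both strands, were found in the windows of *Ogdh* and *Mdh2* and in 1.79% of all 32851 promoter windows. In *Ogdh* they lay 51 bases before the first RefSeq start, and in *Mdh2* 127 bases before the RefSeq start. The site of *Mdh2*, chr5:135778522-135778529, lies inside the gene as annotated in GENCODE, which starts at chr5:135778480. On either strand, TGCGCA, the core of the site of nuclear respiratory factor NRF1, was found in *Ogdh* and *Mdh2* (7.76% of all windows), and CCGGAAG, the ETS site bound by GABP, in *Idh3b* and *Dlst* (8.86%). The site of estrogen-related receptors, AAGGTCA, was found in *Ogdh* (4.72%), and the site of the antioxidant regulator NRF2, TGACNNNGC, in *Dlst* (12.4%). In *Ogdh*, TGACGTCA was in windows 1 to 3, AAGGTCA in window 4 and TGCGCA in windows 5 and 6, so they do not share a window. The shares are per window, and *Ogdh* with its 6 windows had more places for a match than a gene with 1. The YY1 site AAGATGG (6.34%) and the TATA box TATAAA (13.6%) were in none of the members' windows. No site overlapped another. These matches describe letters in a window and were not tested as binding sites.

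*Cs* encodes citrate synthase, which forms citrate at the entry of the cycle. It lies at chr10:128337734-128362479 in GRCm38, the build that the study's files call mm10, under the identifier ENSMUSG00000005683. Its normalized CPM were 56.8 and 64.5 in WT replicates 1 and 2, and 48.9, 93.5 and 45.7 in KIKO replicates 1, 2 and 3. The WT values lay between KIKO replicate 2 above and the other KIKO libraries below. The means were 60.6 ± 5.44 in WT (SD, n = 2) and 62.7 ± 26.7 in KIKO (SD, n = 3). Its log2 fold change was 0.05 (SE 0.45), with a 95% interval from -0.98 to 1.08. On leaving out KIKO replicate 2 it was -0.36, with an interval from -1.06 to 0.33. The sign of the *Cs* value thus turned without that library, and it also turned without WT replicate 1, to -0.05.

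Isocitrate is oxidised by 2 kinds of mitochondrial enzyme. The NAD-dependent enzyme, which is regulated by energy state, is built of α, β and γ subunits, the first of which is encoded by *Idh3a* and the second by *Idh3b*. *Idh3a* (ENSMUSG00000032279, chr9:54586334-54604661) had normalized CPM of 42.8 and 19.7 in WT, and 43.4, 45.6 and 37.5 in KIKO. The KIKO libraries were close together and next to WT replicate 1, and WT replicate 2 was the lowest, so the WT libraries differed 2.17-fold. With 26 counts, the 95% Poisson interval of WT replicate 2 was 12.9 to 28.9, below that of WT replicate 1, 31 to 57.7. For *Idh3a* the log2 fold change was 0.44 (SE 0.49), with an interval from -0.68 to 1.56. Without WT replicate 2 it was -0.04, and without WT replicate 1 it was 1.08. As the WT libraries disagreed by more than the difference between groups, no direction can be given for *Idh3a*.

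*Idh3b* (ENSMUSG00000027406, chr2:130279309-130284547) had normalized CPM of 87.7 and 118 in WT, and 70.2, 127 and 83.2 in KIKO. The highest and the lowest value were both in KIKO. The log2 fold change was -0.14 (SE 0.40), with an interval from -1.05 to 0.78. It was -0.43 without KIKO replicate 2, with an interval from -1.05 to 0.18. The exons of *Idh3b* share 5 bases with those of *Nop56* on the opposite strand. The level of *Idh3a* relative to *Idh3b*, each per kilobase of exon, was 0.33 and 0.113 in WT and 0.417, 0.243 and 0.304 in KIKO, and these ratios overlapped. *Idh3g*, which encodes the γ subunit, had normalized CPM from 109 to 110 in WT and from 96.6 to 120 in KIKO, with a log2 fold change of 0.02 (SE 0.34).

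*Idh2* encodes the NADP-dependent isocitrate dehydrogenase of the matrix, a source of NADPH for antioxidant systems. It lies at chr7:80094846-80115392 (ENSMUSG00000030541) and was counted between 11 and 49 times. Its normalized CPM were 11 and 19.7 in WT, and 16.6, 37.9 and 23.3 in KIKO. KIKO replicates 2 and 3 were above both WT libraries, and KIKO replicate 1 lay between them. The means were 15.3 ± 6.2 in WT (SD, n = 2) and 25.9 ± 10.9 in KIKO (SD, n = 3). Its log2 fold change of 0.74 (SE 0.61) was the largest of the 9 genes, and its interval from -0.65 to 2.13 included 0. In folds, this interval reached from 0.639 to 4.39. Without KIKO replicate 2 the value was 0.34, with an interval from -0.80 to 1.48, and without WT replicate 2 it was 1.22. The size of the *Idh2* value thus depended on which library was left out, and its sign did not.

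The α-ketoglutarate dehydrogenase complex converts α-ketoglutarate to succinyl-CoA. *Ogdh* encodes its first component, the dehydrogenase that binds thiamine pyrophosphate. *Ogdh* (ENSMUSG00000020456, chr11:6291633-6356642) had normalized CPM of 88.7 and 69 in WT, and 84.4, 77.3 and 73.1 in KIKO. The 3 KIKO values lay within the range of the WT pair. The means were 78.8 ± 13.9 in WT (SD, n = 2) and 78.2 ± 5.72 in KIKO (SD, n = 3). The log2 fold change was -0.01 (SE 0.36), with an interval from -0.83 to 0.81, and it was 0.00 without KIKO replicate 2. In folds, the interval of *Ogdh* reached from 0.562 to 1.76.

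*Dlst* encodes the second component of the complex, the succinyltransferase that carries lipoic acid. *Dlst* (ENSMUSG00000004789, chr12:85110833-85134845) was the most counted of the 9 genes in every library, from 150 to 278 counts. Its normalized CPM were 161 and 197 in WT, and 162, 215 and 152 in KIKO. WT lay within the range of KIKO. The log2 fold change was -0.02 (SE 0.36), with an interval from -0.84 to 0.80, or from 0.557 to 1.74 in folds. Without KIKO replicate 2 it was -0.20. *Dld*, which encodes the component it shares with other dehydrogenase complexes, had normalized CPM of 28.9 and 33.4 in WT and 41, 30.1 and 40.6 in KIKO, with a log2 fold change of 0.25 (SE 0.44).

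*Ogdhl* encodes a relative of the *Ogdh* product that is found mainly in the brain. It had normalized CPM of 53.8 and 92.5 in WT, and 123, 186 and 118 in KIKO. All KIKO libraries were above both WT libraries. Its log2 fold change was 0.96 (SE 0.42), and its interval from -0.01 to 1.93 included 0, so it missed the p threshold. It was 0.70 on leaving out KIKO replicate 2, with an interval from 0.07 to 1.33, below the fold threshold. The level of *Ogdh* relative to *Ogdhl* per kilobase of exon was 1.25 and 0.567 in WT, and 0.521, 0.315 and 0.472 in KIKO. Of 11 such ratios between enzymes and subunits of the cycle or their cytosolic counterparts, this was the only ratio whose groups did not overlap. The gap between WT replicate 2 and KIKO replicate 1 was small. As the groups did not overlap in 16.7% of all tested genes, a lone case among 11 ratios does not stand out. An exact permutation test of 2 against 3 libraries cannot give a two-sided p below 0.1, so the ratios were not tested.

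*Suclg1* encodes the α subunit of succinyl-CoA synthetase, the enzyme that forms GTP or ATP in the cycle. It lies at chr6:73248382-73276911 (ENSMUSG00000052738), and 0.442% of the 50-base windows of its longest annotated transcript also occur in transcripts of other genes. Its normalized CPM were 49.8 and 60.7 in WT, and 58.4, 101 and 61.9 in KIKO. KIKO replicate 2 was 1.64-fold above the next library, and the other 4 libraries were close together. Its log2 fold change was 0.42 (SE 0.42), with an interval from -0.54 to 1.38. On leaving out KIKO replicate 2 it was 0.11, with an interval from -0.57 to 0.79. *Sucla2*, the subunit of the ATP-forming enzyme, had normalized CPM of 52.8 and 28.1 in WT and 52, 113 and 58.9 in KIKO, with a log2 fold change of 0.89 (SE 0.51) that was 0.47 without KIKO replicate 2. *Suclg2*, the subunit of the GTP-forming enzyme, had 8 and 16 counts in WT and 10, 3 and 3 in KIKO, too few to be tested.

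*Fh1* encodes fumarase, which hydrates fumarate to malate. It lies at chr1:175600374-175625635 (ENSMUSG00000026526) and was counted between 12 and 59 times. Its normalized CPM were 19.9 and 19.7 in WT, and 32.3, 45.6 and 12.2 in KIKO. The WT libraries were nearly equal, KIKO replicates 1 and 2 were above them and KIKO replicate 3 was below. Within KIKO, the Poisson interval of replicate 2, 34.7 to 58.8, did not overlap that of replicate 3, 6.29 to 21.3. The log2 fold change was 0.61 (SE 0.63), with an interval from -0.83 to 2.04. Without KIKO replicate 2 it was 0.19, and without KIKO replicate 3 it was 0.97.

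*Mdh2* encodes the malate dehydrogenase of the matrix, which closes the cycle and takes part in the malate-aspartate shuttle. It lies at chr5:135778480-135790398 (ENSMUSG00000019179). Its normalized CPM were 136 and 102 in WT, and 155, 135 and 122 in KIKO. The highest value was in KIKO replicate 1 and the lowest in WT replicate 2, and WT replicate 1 lay among the KIKO values. The log2 fold change was 0.21 (SE 0.36), with an interval from -0.61 to 1.02. It was 0.22 without KIKO replicate 2, with an interval from -0.35 to 0.80, so KIKO replicate 2 did not set it.

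**Figure D2:**
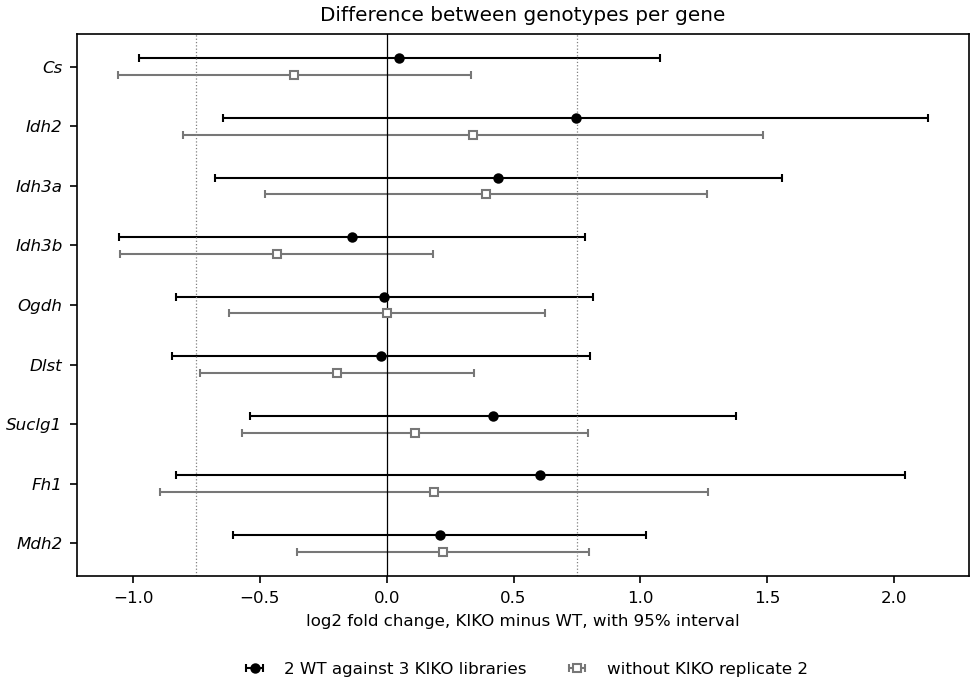
The horizontal axis gives the log2 fold change of KIKO over WT and the vertical axis the gene. Filled circles are the comparison of 2 WT with 3 KIKO libraries, open squares the comparison without KIKO replicate 2, bars 95% intervals, and dotted lines the thresholds at 0.75 in size. The intervals of all 9 genes include 0, and the values run from *Idh3b* at -0.14 to *Idh2* at 0.74.

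In the mean of the 9 genes, the KIKO libraries differed more among themselves than the groups did. Relative to the mean of each gene over the 5 libraries, the mean log2 level of the 9 genes was -0.14 and -0.13 in WT, and -0.02, 0.47 and -0.18 in KIKO replicates 1, 2 and 3. KIKO replicate 2 was the highest library for 7 of the 9 genes, all but *Ogdh* and *Mdh2*. Over all tested genes, 33.9% were highest in that library and 37.1% were lowest there. None of the 9 genes was lowest in it. Its level over the mean of the other KIKO libraries was 2.05-fold for *Fh1*, 1.98-fold for *Cs*, 1.9-fold for *Idh2*, 1.68-fold for *Suclg1*, 1.65-fold for *Idh3b*, 1.37-fold for *Dlst* and 1.13-fold for *Idh3a*, against 0.982-fold for *Ogdh* and 0.976-fold for *Mdh2*. *Ogdh* and *Mdh2* were thus the members with as high a mean in the other KIKO libraries.

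**Figure D3:**
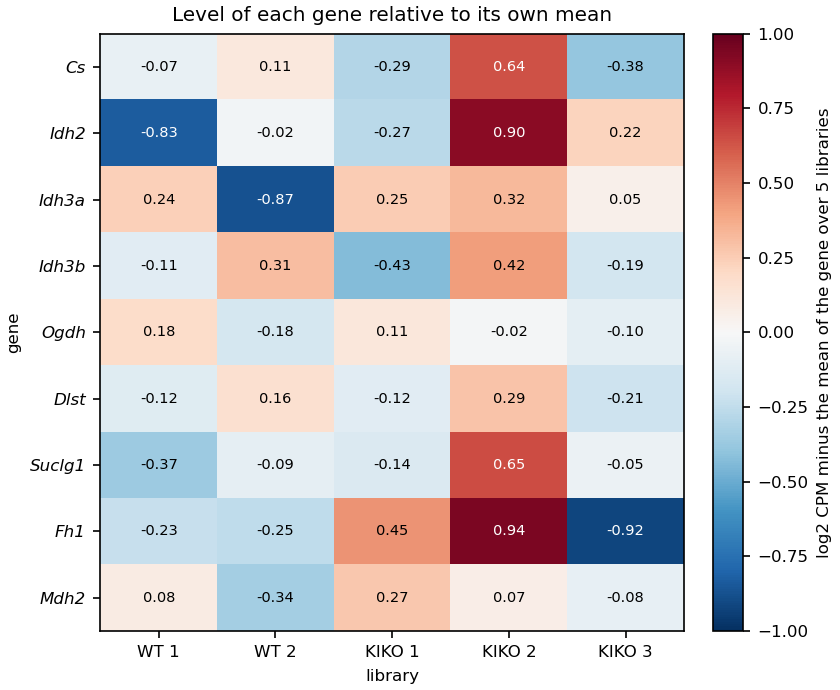
Columns are the 5 libraries and rows the 9 genes, and colour and number give the log2 CPM of the gene minus its mean over the libraries (red, above; blue, below). The column of KIKO replicate 2 is above 0 for 8 of the 9 genes, with *Ogdh* at -0.02 and *Mdh2* at 0.07.

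Together the 9 genes took 657 and 883 counts in WT and 852, 1136 and 602 counts in KIKO. As a share of all counts, this was 0.0629% and 0.0653% in WT, and 0.0665%, 0.0915% and 0.0594% in KIKO. The 95% Wilson interval of KIKO replicate 2, from 0.0863% to 0.0969%, lay above the intervals of the other 4 libraries, the highest of which ended at 0.0711%. These intervals cover counting error only, and only if reads are independent molecules, which the sources used here do not say. Without KIKO replicate 2, the median log2 fold change of the 9 genes was 0.11, again with 6 positive and 3 negative values, and no member passed the thresholds. In that comparison, 669 of 10373 tested genes passed, or 6.45%, and the median over all genes was -0.01.

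Markers of several cell types moved with the same library. The summed normalized CPM of the 11 microglial markers was 4870 and 5835 in WT, and 4202, 8885 and 5064 in KIKO, and 8 of the 11 were highest in KIKO replicate 2. For 5 oligodendrocyte markers it was 4841 and 10679 in WT and 4146, 17133 and 5002 in KIKO, with 3 of the 5 highest there. For 4 choroid plexus markers it was 10610 and 11658 in WT and 7895, 14150 and 6612 in KIKO, with 3 of the 4 highest there. In the opposite direction, 6 granule neuron markers summed to 2262 and 1674 in WT and 2243, 1341 and 2107 in KIKO, none of them highest in KIKO replicate 2. The 4 Purkinje neuron markers summed to 187 and 110 in WT and 322, 139 and 263 in KIKO, and again none was highest there. For 5 markers of astrocytes and Bergmann glia the range was 132 to 251 in WT and 197 to 281 in KIKO, with *Aldh1l1* at 0 in KIKO replicate 2 and *Gdf10* at 0 in WT replicate 1. For 4 endothelial markers it was 355 to 711 in WT and 390 to 577 in KIKO, and for 4 markers of blood cells 770 to 2101 in WT and 1252 to 2559 in KIKO. The groups overlapped in each of these sums, and their part in the levels of the TCA cycle genes was not tested.

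The levels of the 9 genes were set side by side per kilobase of exon, with the annotated exons of all transcripts of a gene joined. *Mdh2* was highest with a mean of 36.5 normalized CPM per kilobase over the 5 libraries (SD 5.59), followed by *Idh3b* with 28.4 (SD 7.01), *Dlst* with 18.6 (SD 2.82), *Ogdh* with 14.4 (SD 1.47), *Suclg1* with 14.4 (SD 4.34), *Cs* with 10.7 (SD 3.31), *Idh2* with 8.38 (SD 3.91), *Fh1* with 7.65 (SD 3.88) and *Idh3a* with 7.46 (SD 2.08). On this scale *Idh3a* stood at the 50.4th percentile of the tested genes and *Mdh2* at the 91.2nd. The order *Idh3b* over *Dlst*, *Dlst* over *Ogdh*, and *Suclg1* over *Cs* held within each of the 5 libraries. *Mdh2* was above *Idh3b* in 4 libraries, *Ogdh* above *Suclg1* in 2, *Cs* above *Idh2* in 4, *Idh2* above *Fh1* in 3 and *Fh1* above *Idh3a* in 3, so these neighbours did not differ beyond their spread. The ranges of all 8 pairs of neighbours overlapped. If reads were drawn from the 3′ ends of transcripts, as in the service that the study's methods name, scaling by length would not apply, and the labels name a different kit. Without this scaling the order can turn, as *Dlst* had more counts than *Idh3b* in every library.

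The rest of the cycle was described in the same libraries. Of 9 other genes for its enzymes and subunits, 7 could be tested and 0 passed the thresholds, with 5 positive and 2 negative values and a median log2 fold change of 0.255. The subunits of succinate dehydrogenase, which are 4 in number, differed in which library was highest. *Sdha*, the flavoprotein, had normalized CPM of 161 and 188 in WT and 139, 92.7 and 171 in KIKO (log2 fold change -0.38, SE 0.39, or -0.18 without KIKO replicate 2). *Sdhb*, the iron-sulfur subunit, had 69.7 and 50.8 in WT and 76.5, 129 and 101 in KIKO (log2 fold change 0.77, SE 0.41). Without KIKO replicate 2 it was 0.56, with an interval from -0.09 to 1.21, below the fold threshold. The groups did not overlap for *Sdhb*, as for 16.7% of all tested genes. For *Sdhc*, a membrane anchor, the values were 56.8 and 75.8 in WT and 29.2, 126 and 13.2 in KIKO (log2 fold change -0.23, SE 0.80). *Sdhd*, the other anchor, had between 1 and 6 counts and could not be tested. Leaving out KIKO replicate 2 made *Sdhc* pass the thresholds, with a log2 fold change of -1.62 and an interval from -2.46 to -0.79 (adjusted p = 0.209 by edgeR). In that comparison 6.45% of all tested genes passed. KIKO replicate 2 was the highest library for *Sdhc* and *Sdhb* and the lowest for *Sdha*.

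Pyruvate enters the cycle through its carrier and the pyruvate dehydrogenase complex, which is switched off by kinases and on by phosphatases. Of 13 genes for these proteins, 11 could be tested and 0 passed the thresholds, with 8 positive and 3 negative values and a median log2 fold change of 0.12. The smallest p belonged to *Pdk2*, a kinase that inhibits the complex, with normalized CPM of 41.8 and 25.8 in WT and 78.1, 60.3 and 60.9 in KIKO. All KIKO libraries of *Pdk2* were above both WT libraries, and the groups did not overlap in 16.7% of all tested genes. Its log2 fold change was 0.98 (SE 0.43), and its interval, from just below 0 to 1.96, missed the p threshold. Without KIKO replicate 2 it passed the thresholds at 1.05, with an interval from 0.31 to 1.80 (adjusted p = 0.422 by edgeR). Of all tested genes, 6.45% passed in that comparison. Among the phosphatase subunits, *Pdp1* had a log2 fold change of 0.86 (SE 0.80), *Pdp2* of 0.45 (SE 0.56) and the regulatory subunit *Pdpr* of -0.49 (SE 1.304). Leaving out KIKO replicate 2, they were 0.55, 0.20 and 0.06. *Pdpr* was added after its values were seen.

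Branch enzymes fill or drain the cycle or run its reactions in the cytosol. Of 17 such genes, 14 could be tested and 0 passed, with 10 positive and 4 negative values and a median of 0.16. The direction of this list turned without KIKO replicate 2, to 6 positive and 8 negative values and a median of -0.10. *Mdh1*, the cytosolic counterpart of *Mdh2*, had normalized CPM of 111 and 129 in WT and 147, 485 and 115 in KIKO. KIKO replicate 2 was far above the other libraries, which overlapped, and the log2 fold change of 1.06 (SE 0.64) was 0.13 without it. The level of *Mdh2* relative to *Mdh1* per kilobase was 0.889 and 0.568 in WT, and 0.759, 0.201 and 0.765 in KIKO. *Got1*, the cytosolic aspartate aminotransferase, had a log2 fold change of 0.74 (SE 0.48), or 0.49 without KIKO replicate 2, and *Me1*, the cytosolic malic enzyme, of -0.80 (SE 0.72).

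**Figure D4:**
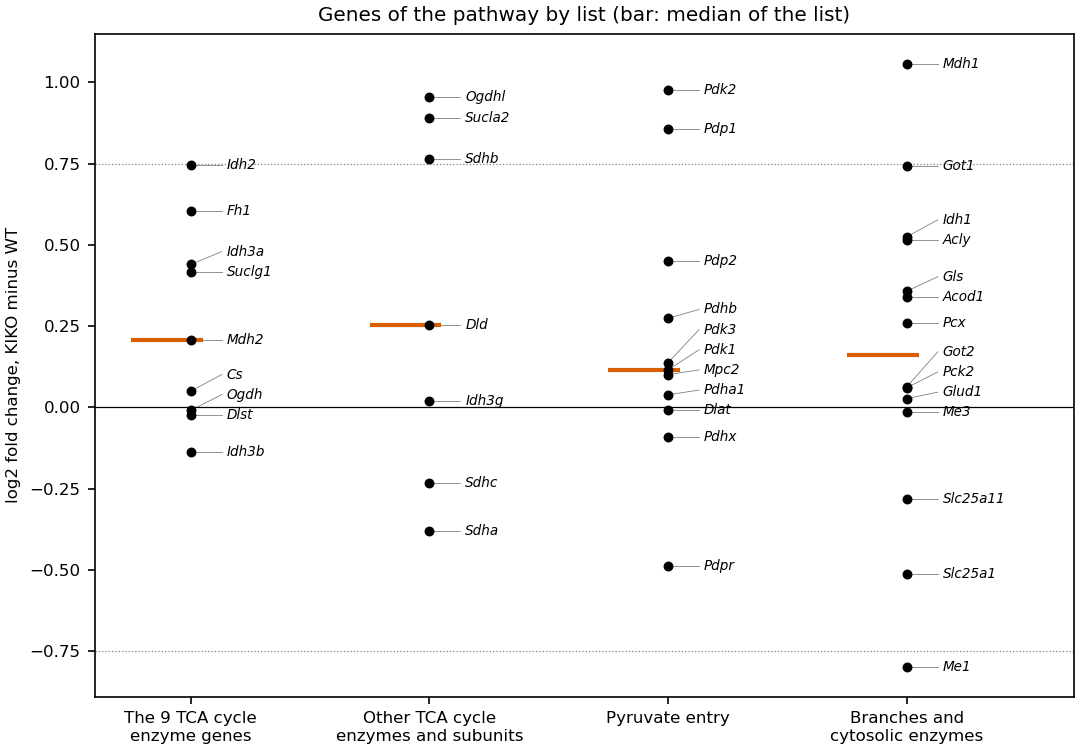
The vertical axis gives the log2 fold change of KIKO over WT for each tested gene, grouped by list on the horizontal axis, with an orange bar at the median of the list and dotted lines at 0.75 in size. The medians lie between 0.12 and 0.255, and no gene of the 4 lists passed both thresholds.

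The tested genes whose levels followed the mean of the 9 genes most closely were found by the root mean square difference of centred log2 levels over the 5 libraries. They were *Hspa8*, a constitutive chaperone, and *Pltp*, a phospholipid transfer protein, each at 0.03, *Frmd4a* at 0.04, and *Kndc1* and *Ptn*, a secreted growth factor, each at 0.05. *Hspa8* had normalized CPM of 763 and 736 in WT and 816, 1128 and 698 in KIKO, and *Pltp* had 59.8 and 57.6 in WT and 64.7, 92 and 55.8 in KIKO. Both were highest in KIKO replicate 2, as were 7 of the 9 members. This follows from how these genes were picked, since the mean of the 9 genes was highest in that library. The distances of the members from their own mean ran from 0.15 for *Suclg1* and 0.16 for *Dlst* to 0.43 for *Idh2* and 0.45 for *Fh1*. The members were not picked by this distance, so these values cannot be set against those of the nearest genes.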

How the data were processed

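Reads had been trimmed (Trimmomatic), aligned to mm10 (HISAT2) and assigned to genes (featureCounts) by the authors. The annotation, the strand setting and the treatment of multi-mapped reads are not given in the sources used here. The values the authors deposited are unnormalized counts for each gene and log2 values normalized with DESeq2. In each table, 5 columns were matched to samples by name, and 2 further columns of per-sample values, which match no sample label, were not used. The members and the gene lists were chosen with earlier results of these data known.

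Symbols and coordinates were taken from GENCODE M21 (GRCm38) and were found for 30934 identifiers (99.6%). Promoter windows were taken from RefSeq (GRCm38.p6), and motifs were searched on both strands. The test was run on the counts in edgeR 4.0.16 (R 4.3.3). The filter was filterByExpr (minimum count 10, minimum total 15), libraries were scaled by TMM with factors from 0.9712 to 1.057, and KIKO was compared with WT by the two-sided quasi-likelihood test with Benjamini-Hochberg adjustment over the 10889 genes tested. The design assumed 3 WT samples, and 2 were compared. Normalized CPM are counts divided by the scaled library size, on which 3 counts correspond to 2.28 to 3.04.

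All 9 members, the other subunits and, from each list, the genes past the thresholds or the 3 with the smallest p were named, with the 5 genes nearest to the members. A few genes first on these lists were taken off them, are not reported here and enter no sum, ratio or median. The sums and medians cover every gene that stayed on a list, named or not. Alternatives were DESeq2 1.42.0, RLE factors, scaling by library size only, all genes with at least 1 count, at least 10 counts in every library, the omission of each library, the replicate number as a block, and limma 3.58.1 with trend on the deposited log2 values or with voom and sample quality weights.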

Additional observations from a re-analysis of the deposited data

How the results depend on the processing

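No TCA cycle enzyme gene passed the thresholds under any of the 13 alternatives. Where each group kept at least 2 libraries, p ran from 0.145 (*Fh1* without KIKO replicate 3, edgeR) to 0.999 (*Ogdh*, DESeq2). The median log2 fold change of the 9 genes stayed between 0.11 and 0.30, beside 0.21 in the main fit. The SD between replicates of the members' median log2 level was 0.25, a spread of levels and not of differences between groups. The values of *Idh2*, *Suclg1* and *Fh1* stayed positive in all 13. In 20 of 117 single values the sign turned, each time for a gene without a call, and the cause was not tested. For *Cs* this was -0.0175 with limma on the deposited log2 values and -0.31 with quality weights. For *Ogdh* it was 0.0431 with library size alone, 0.0457 with the replicate block, 0.0071 with limma on the log2 values and 0.0301 with quality weights, and for *Dlst* 0.0331 with library size alone and 0.0670 with the replicate block. Leaving out 1 library gave 0.34 to 1.22 for *Idh2*, 0.11 to 0.57 for *Suclg1*, 0.19 to 0.97 for *Fh1*, -0.36 to 0.23 for *Cs*, -0.0365 to 1.08 for *Idh3a*, -0.43 to 0.0728 for *Idh3b*, -0.19 to 0.17 for *Ogdh*, -0.20 to 0.11 for *Dlst* and -0.0030 to 0.43 for *Mdh2*. The reversals were -0.0524 (WT replicate 1) and -0.36 (KIKO replicate 2) for *Cs*, -0.0365 (WT replicate 2) for *Idh3a*, 0.0728 (WT replicate 2) and 0.0368 (KIKO replicate 1) for *Idh3b*, 0.17 (WT replicate 1), 0.0010 (KIKO replicate 2) and 0.0372 (KIKO replicate 3) for *Ogdh*, 0.11 (WT replicate 2), 0.0374 (KIKO replicate 1) and 0.0717 (KIKO replicate 3) for *Dlst*, and -0.0030 (WT replicate 2) for *Mdh2*.

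The 131 genes past the thresholds became 383 with all genes of at least 1 count, 519 with quality weights (203 higher in KIKO and 316 lower, against 78 and 53) and 56 (without WT replicate 1) to 669 (without KIKO replicate 2) on leaving out 1 library. Genes with an adjusted p under 0.05 numbered 1 with all genes of at least 1 count, and 0 to 5 on leaving out 1 library. Of the other pathway genes, *Ogdhl* and *Pdk2* passed with library size alone and with limma on the log2 values (2 each). Over all 10889 tested genes, 137 and 126 passed in these settings. *Ogdhl* and *Mdh1* passed with all genes of at least 1 count (2), where 383 genes passed in all. *Sdhc*, *Ogdhl* and *Pdk2* passed with quality weights (3), where 519 of the 10889 genes passed. Leaving out 1 KIKO library gave 0 to 2, the 2 being *Sdhc* and *Pdk2* without KIKO replicate 2, where 6.45% of all tested genes passed.

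In a model with a replicate block, 271 genes passed (109 higher in KIKO, 162 lower), none of them at an adjusted p under 0.05. The median of the 9 genes was 0.30, and *Ogdhl* and *Mdh1* passed among the other pathway genes (2). Deviations of libraries with the same number correlated with r of 0.18 and 0.24. With only 2 WT libraries the deviations are equal and opposite, so these values cannot tell whether same-numbered libraries are paired, and the labels state no pairing. This model left 1 residual degree of freedom. Counts of 11 to 59 for *Idh2*, *Idh3a* and *Fh1* limit what could be detected for these genes.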
